A study of Mus musculus with 35 samples.

Results

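Small RNA of mouse spermatocytes without SMG6 was compared with that of control spermatocytes, one RNA kind at a time. The libraries were chosen by their labels alone, and were 5 of cKO and 5 of control spermatocytes among the 35 samples of the series. They were described in 4 tables, with 864 rows of miRNAs, 284 rows of tRNA fragments, 219 piRNA clusters and 1489 repeat names. After the filter on low counts, 270 miRNAs, 181 tRNA fragments, 214 clusters and 810 repeats could be tested. A row with counts in a single group can pass the miRNA and tRNA filter through that group.

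The cKO mice were homozygous for a floxed exon 9 of Smg6 and carried Cre under the Ngn3 promoter (Smg6 fx/fx; Ngn3Cre+), so that recombination was directed to the germ line. Controls were littermates without Cre, either Smg6 fx/fx or Smg6 fx/wt, and both groups were adult males of a mixed C57Bl/6J and SV129 background. Spermatocytes were enriched by sedimentation through a BSA gradient from both testes of 1 mouse per the series' design, whereas the study's methods speak of several testes, so that a library may hold more than 1 mouse. In either case cells outside the germ line that a fraction still held were not deleted for Smg6. The small RNA tables hold no measure of Smg6 itself, and reads over exon 9 were not analysed here.

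SMG6 is an endonuclease of nonsense-mediated decay, the pathway that removes transcripts with a premature stop codon. Germ cells in meiosis carry a dense small RNA population, of which piRNAs are the main part. They are cut from long single-stranded precursors of genomic clusters, bind PIWI proteins and are known for silencing transposons and for cleaving transcripts. MicroRNAs are cut by DROSHA and DICER from hairpins, select their targets mainly through the seed, bases 2 to 8, and are expressed in patterns that differ sharply between cell types. Fragments of tRNAs arise by cleavage in the loops and carry a 5′ end, a 3′ end or the added CCA end of the mature molecule.

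The miRNAs on which the results turn are shown with their seed in capitals, grouped by shared seed where 2 or more of them carry it. The mature sequences are those of RefSeq (GRCm38.p6), in which 230 of the 270 miRNAs tested were found by name. The seed GGCAGUG is shown because its carriers went in opposite directions.
miR-34a-5p: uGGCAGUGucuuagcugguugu
miR-34b-5p: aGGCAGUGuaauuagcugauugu
miR-449a-5p: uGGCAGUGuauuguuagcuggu
miR-449c-5p: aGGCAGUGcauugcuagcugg
The seed AACACUG, also with carriers of opposite direction, and the seed AAUACUG are those of the miR-200 family.
miR-200a-3p: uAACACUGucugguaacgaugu
miR-141-3p: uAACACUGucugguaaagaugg
miR-200b-3p: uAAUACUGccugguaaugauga
miR-429-3p: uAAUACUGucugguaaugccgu
The next 5 belong to the X-linked testis miRNAs and are shown because this list held the most lower calls. Their seeds all differ.
miR-547-3p: cUUGGUACaucuuugagugag
miR-201-5p: uACUCAGUaaggcauuguucuu
miR-878-3p: gCAUGACAccacacuggguaga
miR-880-3p: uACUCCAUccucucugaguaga
miR-741-3p: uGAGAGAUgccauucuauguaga
The last 6 are single miRNAs with large differences and a pair of let-7 members that share the seed GAGGUAG.
miR-138-5p: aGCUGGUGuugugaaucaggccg
miR-202-3p: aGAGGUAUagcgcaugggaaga
miR-7a-5p: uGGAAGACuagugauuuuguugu
miR-146a-5p: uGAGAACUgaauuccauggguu
let-7b-5p: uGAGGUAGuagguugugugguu
let-7g-5p: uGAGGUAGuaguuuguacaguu

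Each library is named by the S number of its column, S21 to S25 for cKO and S26 to S30 for control, and values are listed in that order. Depth was low for miRNAs, with 120483 to 226142 counts per cKO and 185731 to 273708 per control library, and for tRNA fragments, with 37315 to 83114 and 43989 to 65044. Clusters held 4823440 to 5799867 and 5680461 to 7028885 counts, and repeats 1129049 to 1361474 and 1264733 to 1549037. The 5 libraries of a group are described as biological replicates in the series, while the study states that small RNA came from the samples used for long RNA, which had 3 libraries per group, and a legend on spermatocyte small RNA also gives 3 replicates. The 5 libraries need therefore not be 5 mice, and p values hold only if they are. In clusters and repeats S21 resembled S23, S24 resembled S25, S27 resembled S28 and S29 resembled S30 most, yet every pair of libraries differed by more than sampling noise (chi-square per degree of freedom of at least 2.49). Values with these pairs summed, 3 libraries against 3, are given beside results that they change. Library S22 stood apart from the other cKO libraries in many of the values below, mainly of miRNAs.

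Counts of miRNAs, tRNA fragments and clusters were first set against their sum. Clusters took 96.1 ± 0.922% of it in cKO and 95.7 ± 0.288% in control libraries (mean ± SD, n = 5 each), a difference with an exact permutation p of 0.437. The miRNA share was 2.51, 4.03, 2.62, 2.41 and 2.69% in cKO and 3.14, 3.37, 3.76, 3.58 and 3.37% in control libraries (exact permutation p = 0.103, adjusted 0.151). S22 held the highest share of all 10 libraries, and the other cKO libraries held less than any control. Without S22 the miRNA share was 0.887 percentage points lower in cKO and the cluster share 0.776 points higher (exact permutation p = 0.0159 each). S22 was left out here because it stood apart, and that p is the smallest that the remaining libraries allow. It does not replace the p of all libraries. Both shares are parts of one sum and are not independent. Repeats held 22.5 ± 0.32 counts per 100 of that sum in cKO and 21.3 ± 0.225 in control libraries (n = 5 each), and the groups did not overlap (exact permutation p = 0.00794, adjusted 0.0175 over 22 shares). With 5 libraries against 5 there are 252 regroupings, and 0.00794 is the smallest two-sided p that they allow. With the most alike libraries summed, 3 against 3, the smallest p is 0.1, so that no share could pass. Each of the 10 shares with an adjusted p of at most 0.05 was then at that p, without overlap and in the same direction, and repeats were 1.03 counts per 100 higher.

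Among miRNAs, the X-linked testis group, miR-34a, miR-138, miR-202 and most of the miR-200 family were lower in cKO spermatocytes. Higher were miR-449c, miR-7a, and miRNAs of the muscle and leukocyte lists, and several of these met the filter in cKO but not in control libraries. Features were tested two-sided within each table by the quasi-likelihood method of edgeR, p values were adjusted over the table after Benjamini and Hochberg, and a feature was called at an adjusted p of at most 0.05. Of 270 miRNAs 140 were called (51.9%), 74 higher (27.4%) and 66 lower (24.4%) in cKO. A log2 fold change of 1.5 or more was reached by 30 (11.1%), and one of -1.5 or less by 24 (8.89%). Without S22 those at -1.5 or less numbered 37, and under the common scaling described below those at 1.5 or more numbered 16. The groups did not overlap in 95 miRNAs (35.2%), with cKO higher in 39 (14.4%) and lower in 56 (20.7%). The 3 against 3 comparison called 34 higher and 33 lower. In the common scaling, by the summed counts of miRNAs, tRNA fragments and clusters in place of the miRNA table, which moved the median log2 fold change of all miRNAs from 0.20 to -0.01, 44 were higher and 65 lower. In bulk samples, fewer cells of a type and less RNA per cell cannot be told apart.

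**Figure D1:**
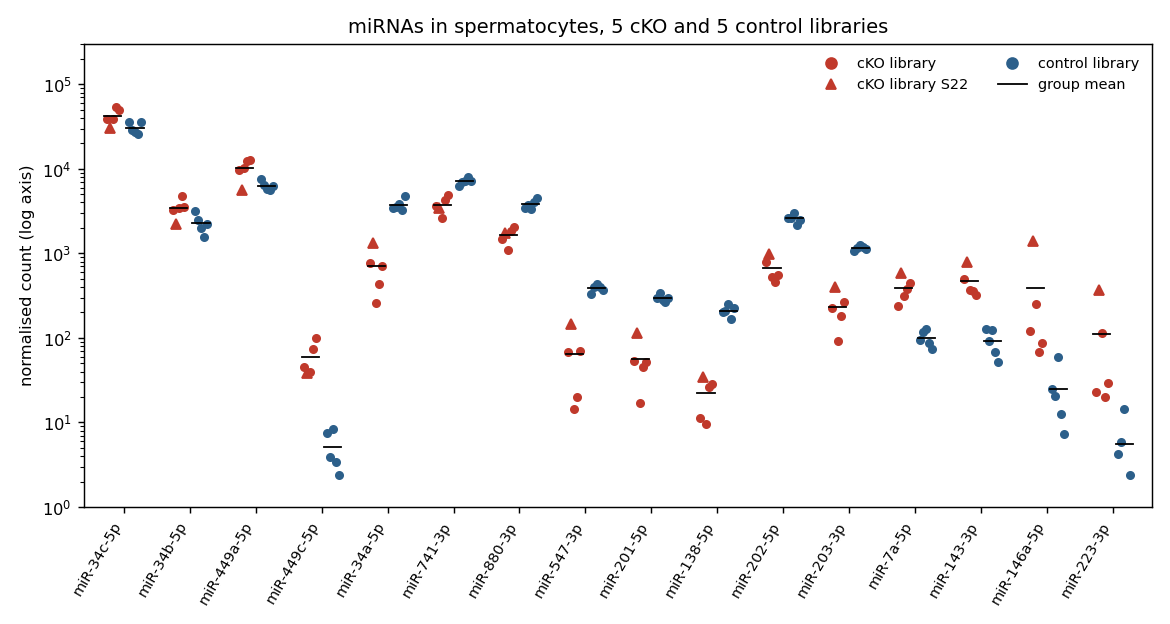
Normalised counts (log axis) of 16 miRNAs in each of the 5 cKO (red) and 5 control (blue) libraries, with a line at each group mean and library S22 as a triangle. The cKO libraries lie below all control libraries for miR-34a-5p, the X-linked miR-741, miR-880, miR-547 and miR-201 and for miR-138, miR-202 and miR-203, and S22 is the highest cKO library for miR-146a and miR-223.

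The listed miR-34 and miR-449 family (miR-34b, miR-34c and miR-449a, b and c) is known from meiotic and later male germ cells and from ciliated epithelia. It took 21.6 to 37.9% of miRNA counts in cKO and 18.7 to 25.2% in control libraries, and miR-34b, miR-34c and miR-449a, used here as germ cell markers, were present in every library, as were the piRNA clusters. The list left out miR-34a, which has the family's seed and is described below. Of 7 listed members tested 4 were higher and 0 lower, with a median log2 fold change of 0.58, beside 0.20 over all 270 miRNAs. With miR-34a-5p, 4 of 8 were higher and 1 lower (median 0.52). The member with the most counts, miR-34c-5p, held 38630, 30584, 39123, 54625 and 49392 normalised counts in cKO and 36207, 28668, 27259, 26095 and 35895 in control libraries. Its groups overlapped, S22 being the lowest cKO library (log2 fold change 0.46, SE 0.17, edgeR adjusted p = 0.0354). miR-449a-5p rose from 6341 ± 809 to 10138 ± 2869 normalised counts (log2 fold change 0.68, edgeR adjusted p = 0.0147), again with overlap through S22. miR-34b-5p was at 0.58 (edgeR adjusted p = 0.0437). These 3 calls were lost in the 3 against 3 comparison (log2 fold changes 0.35, 0.52 and 0.40 for miR-34c-5p, miR-449a-5p and miR-34b-5p), those of miR-34c-5p and miR-34b-5p also under the common scaling (0.20 and 0.31). That of miR-34c-5p was lost without S24, S25, S28 or S29 (0.37 to 0.43) and that of miR-34b-5p without any of S21, S23, S24, S25, S28, S29 or S30 (0.45 to 0.62). Calls in the family numbered 2 without S24, S25, S28 or S29 and 7 without S22.

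The member with the largest log2 fold change was miR-449c-5p (chr13:113036008-113036028, plus strand, in an intron of Cdc20b, GRCm38). It held 45.5, 38.7, 40.0, 73.1 and 99.4 normalised counts in cKO and 7.49, 3.89, 8.25, 3.39 and 2.41 in control libraries. Every cKO library exceeded every control (log2 fold change 3.50, SE 0.41, edgeR adjusted p = 8.58e-05). With control values this low, miR-449c-5p can have passed the filter through the cKO libraries alone. miR-449a-5p lies in an intron of Cdc20b as well (chr13:113037549-113037570), and its mean was over that of miR-449c-5p in both groups.

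miR-34a-5p carries the same seed but comes from another locus (chr4:150068473-150068494, plus strand, in no annotated gene), is known as a target of p53 and is expressed in many tissues. It held 762, 1337, 262, 439 and 718 normalised counts in cKO and 3402, 3540, 3859, 3290 and 4716 in control libraries. All cKO libraries were below all controls, with S22 the highest of them (log2 fold change -2.42, SE 0.36, edgeR adjusted p = 0.000367). Over the 4 tested carriers of GGCAGUG found in RefSeq, 3 were thus higher and 1 was lower. miR-34c-5p had no entry there.

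The X-linked testis miRNAs lie near Fmr1 on the X chromosome and are known from spermatocytes, in which most other genes of the X chromosome are silent during pachytene. Of 36 rows 29 were tested, and 25 were lower and 0 higher, 23 of them without overlap, with a median log2 fold change of -0.81. They took 9.55 ± 1.39% of miRNA counts in cKO (7.46 to 11.4%) and 17.2 ± 1.04% in control libraries (15.7 to 18.6%, n = 5 each). The lower calls numbered 22 to 27 in every scaling, tool and left-out library tried and 14 in the 3 against 3 comparison, with none higher. The list holds rows of equal counts, since miR-465a-3p, miR-465b-3p and miR-465c-3p could not be separated, and 16 of the 270 miRNA rows were identical to another.

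miR-741-3p (chrX:66796809-66796831, minus strand, outside genes) had the highest level of those shown. Its values were 3662, 3404, 2624, 4249 and 4862 normalised counts in cKO and 6336, 7080, 7139, 8085 and 7115 in control libraries. The groups were apart by more than 1000 normalised counts (log2 fold change -0.93, SE 0.16, edgeR adjusted p = 0.00072). miR-880-3p (chrX:66800540-66800561) fell from 3823 ± 474 to 1632 ± 358 (log2 fold change -1.23, edgeR adjusted p = 0.000279), and its neighbour miR-878-3p (chrX:66801518-66801539) from 1534 ± 140 to 492 ± 126 (log2 fold change -1.64). miR-547-3p (chrX:67988383-67988403) held 68.2, 145.6, 14.6, 19.9 and 70.0 in cKO and 332, 401, 435, 400 and 364 in control libraries. Again no cKO library reached a control, and S22 lay highest among the cKO libraries (log2 fold change -2.57, SE 0.49, edgeR adjusted p = 0.00116). miR-201-5p (chrX:67988135-67988156), next to miR-547-3p, was at 56.0 ± 35 against 296 ± 29.9 (log2 fold change -2.38). miR-470-5p was at -1.30 and miR-465a-3p at -0.68, the latter with an edgeR adjusted p of 0.0608 in the 3 against 3 comparison. miR-471-5p was the member at 0.26 and not called (edgeR adjusted p = 0.374).

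Other miRNAs of the X chromosome are given for comparison, and the difference between the lists was not tested. Of the 21 tested outside the list 4 were higher and 2 lower (median log2 fold change -0.10), and of 177 placed on autosomes 57 were higher and 38 lower (median 0.31).

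Other miRNAs outside these lists fell as well. miR-138-5p, which is known from brain and has a copy in chromosome 8 and one in chromosome 9 (chr8:94324312-94324334 and chr9:122682898-122682920), held 11.4, 34.6, 9.70, 26.6 and 28.2 normalised counts in cKO. In control libraries it held 201.1, 208, 252.4, 169 and 222.8. No library lay between the groups (log2 fold change -3.23, SE 0.33, edgeR adjusted p = 8.58e-05). miR-1981-5p was at -2.63 (-3.24 without S22), with S22 at 108 and the other cKO libraries at 21.8 to 44.2 against 189 to 392.1 in controls. miR-203-3p, known from skin epithelium, fell from 1156 ± 76.9 to 232 ± 113 (log2 fold change -2.31, edgeR adjusted p = 0.000209) and miR-100-5p from 513 ± 78.6 to 103 ± 64.2 (log2 fold change -2.31).

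The miR-200 family keeps epithelial cells in their state and lies in 2 loci. The members on chromosome 4 fell together. miR-429-3p (chr4:156053916-156053937) fell from 192 ± 17.7 to 42.1 ± 27 normalised counts (log2 fold change -2.16, edgeR adjusted p = 0.00077), miR-200a-3p (chr4:156054911-156054932) was at -2.05 and miR-200b-3p (chr4:156055685-156055706) at -2.0. In none of these 3 did the groups overlap. The members of the other locus did not follow. miR-200c-3p was at -0.24 (edgeR adjusted p = 0.494), and miR-141-3p (chr6:124717917-124717938), with the same seed as miR-200a-3p, was at 0.87 (31.7 ± 12.6 against 17 ± 4.46 normalised counts, edgeR adjusted p = 0.0273). Its call was lost without S24, S27 or S29 (0.63 to 0.81), in the 3 against 3 comparison (0.74) and under the common scaling (0.59).

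**Figure D2:**
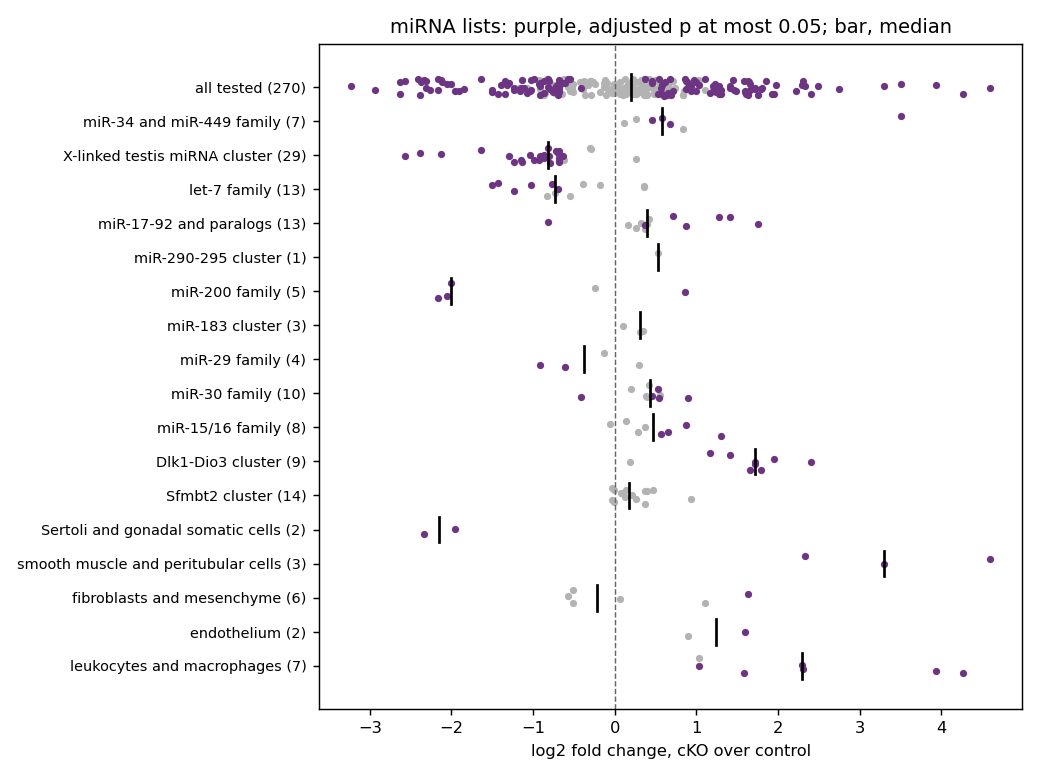
Log2 fold changes (cKO over control) of the miRNAs tested in each list, with the number tested in brackets, called miRNAs in purple, others in grey and a bar at the median. The 29 X-linked testis miRNAs have their median at -0.81, the 9 of the Dlk1-Dio3 cluster at 1.71 and all 270 miRNAs at 0.20. Some of the Dlk1-Dio3 cluster may have passed the filter through the cKO libraries alone.

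In the let-7 family, known for promoting differentiation, 6 of 13 were lower and 0 higher (median log2 fold change -0.73), 10 without S22 and 1 in the 3 against 3 comparison. Over all 270 miRNAs 24.4% were lower and 27.4% higher. let-7g-5p fell from 1589 ± 77.1 to 980 ± 96.4 normalised counts (log2 fold change -0.70, edgeR adjusted p = 0.000711) and let-7b-5p from 2179 ± 386 to 929 ± 497 (log2 fold change -1.23, edgeR adjusted p = 0.00906), with no overlap in either. The most abundant of those named, let-7a-5p, was at -0.19 (edgeR adjusted p = 0.192). let-7b-5p was unevenly low, at 384 and 531 in S24 and S25 and 978 to 1632 in the other cKO libraries. Of the miR-29 family 2 of 4 were lower, a count too small to set apart from that 24.4%. Its miR-29b-3p was at 458 ± 56.4 against 866 ± 59.7 (log2 fold change -0.92, edgeR adjusted p = 0.000367). These miRNAs target collagen and DNA methyltransferase transcripts.

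Of 13 members of miR-17-92 and its paralogs, known for promoting proliferation, 6 were higher and 1 lower (11 and 1 without S22, 2 and 1 under the common scaling, 3 and 0 in the 3 against 3 comparison). Over all 270 miRNAs 74 were higher (27.4%) and 66 lower (24.4%), and 44 and 65 under the common scaling. Among the 6, miR-20b-5p and miR-25-5p had control means of 4.48 and 6.54 normalised counts. These can have passed the filter through the cKO libraries alone. miR-92a-3p rose from 49.4 ± 12.3 to 120 ± 16.6 normalised counts (log2 fold change 1.27, edgeR adjusted p = 0.000461). miR-25-3p was at 0.37 (edgeR adjusted p = 0.0273), a call lost without S24, S28 or S29 (0.32 to 0.36), in the 3 against 3 comparison (0.33) and under the common scaling (0.13). Of the miR-15/16 family, which restrains the cell cycle, 4 of 8 were higher (2 under the common scaling), with miR-195a-5p at 1.30 (198 ± 66.6 against 80.5 ± 11.5). miR-16-5p, the member with the most counts, was at 0.29 (34221 ± 5710 against 28039 ± 2137, edgeR adjusted p = 0.0831), and was called without S22 (0.39). Of the miR-30 family 4 of 10 were higher and 1 lower (1 and 1 under the common scaling). In the 3 against 3 comparison the miR-30 family had no call and the miR-15/16 family 1. In the miR-183 cluster 0 of 3 and in the Sfmbt2 cluster 0 of 14 were called by edgeR and by DESeq2 (0 and 1 at an unadjusted p under 0.05), and the 1 miRNA tested of the pluripotency cluster miR-290-295 was at 0.53 without a call.

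Higher single miRNAs included miR-7a-5p, which is known from neurons and endocrine cells. It held 242, 592, 315, 377 and 446 normalised counts in cKO and 95.2, 119, 126, 88.1 and 73.2 in control libraries. All cKO libraries exceeded all controls (log2 fold change 1.98, SE 0.26, edgeR adjusted p = 0.000177). miR-27b-3p was at 1.00 (414 ± 70.4 against 207 ± 17.1), miR-192-5p at 0.98 and miR-301a-3p at 0.93, with no overlap between groups. The calls of miR-192-5p and miR-301a-3p were lost in the 3 against 3 comparison (0.88 and 0.80). miR-23a-3p was at 2.75 (2.04 without S22, the highest library), with 64.8 to 472 in cKO and 12.7 to 40.6 in control libraries.

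Of the imprinted Dlk1-Dio3 cluster, a large miRNA array known from embryo and brain, 9 of 55 rows could be tested and 8 were higher (median log2 fold change 1.71). Control means were 3.65 for miR-381-3p, 3.89 for miR-434-5p, 5.94 for miR-382-5p and 7.05 normalised counts for miR-411-5p. These can have passed the filter through the cKO libraries alone, so that the filter may in part set the count and the median. miR-379-5p held 104, 82.3, 115, 26.6 and 29.5 normalised counts in cKO and 9.63, 32.1, 39.9, 8.47 and 12.1 in control libraries. S24 and S25 lay within the control range, and the other cKO libraries above it (log2 fold change 1.79, edgeR adjusted p = 0.0147). miR-127-3p was at 1.72 with overlap, and miR-541-5p at 1.16 (66.2 ± 15.3 against 29.5 ± 4.20) without overlap. The list held 2 higher calls in the 3 against 3 comparison and under the common scaling, and 4 or 5 without S21, S23, S26 or S29.

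Marker miRNAs of other cell types differed between the groups as well. miR-202, known from Sertoli and other gonadal somatic cells, was lower in both arms. miR-202-5p held 792, 978, 531, 462 and 552 normalised counts in cKO and 2634, 2626, 3019, 2192 and 2462 in control libraries. The groups were far apart (log2 fold change -1.96, SE 0.21, edgeR adjusted p = 8.58e-05), and miR-202-3p was at -2.33. Both arms together took 0.245 to 0.571% of miRNA counts in cKO and 1.29 to 1.76% in control libraries.

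Smooth muscle and peritubular markers were higher, 3 of the 3 tested among 7 rows, with a summed share of 0.227 to 0.485% in cKO and 0.0279 to 0.0732% in control libraries. miR-143-3p, the main one, held 492, 796, 371, 362 and 323 normalised counts in cKO and 127, 92.5, 124, 67.8 and 52.3 in control libraries, with no overlap (log2 fold change 2.34, SE 0.32, edgeR adjusted p = 0.000259). miR-145a-5p, from the same transcript, was at 3.30 (2.67 without S22). miR-1a-3p was at 4.6 (3.43 without S25), mostly from S24 and S25 with 94.7 and 241 normalised counts, against 9.05 to 22.7 in the other cKO and 0.804 to 6.42 in control libraries. Like miR-133a, miR-1a is a heart and skeletal muscle miRNA, so that the list is not of smooth muscle alone. For miR-133a-3p there were 2, 1, 1, 5 and 12 counts in cKO and 0, 1, 0, 0 and 0 in control libraries. For miR-133b-3p there were 0, 0, 0, 1 and 1 against 0 in all 5 controls. Both had too few counts to test.

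Leukocyte and macrophage markers were higher in 6 of 7 tested among 11 rows, with 0.502 to 2.57% of miRNA counts in cKO and 0.293 to 0.408% in control libraries. Of the 6, miR-223-3p, miR-155-5p and miR-150-5p reached 10 counts in fewer than 3 control libraries. They met the filter through cKO, so that it in part selected the higher calls. miR-146a-5p held 121, 1398, 253, 68.1 and 85.9 normalised counts in cKO and 24.6, 20.4, 59.2, 12.7 and 7.24 in control libraries. S22 was far above the rest, yet the groups did not overlap (log2 fold change 3.94, 2.40 without S22 and 4.59 without S28, edgeR adjusted p = 0.00365 with all libraries). miR-223-3p, of neutrophils and macrophages, was at 4.27 (19.9 to 372 against 0.847 to 14.4, with 3.01 without S22, the highest library, and 5.07 without S28), miR-155-5p at 2.29 (38.8 ± 13.7 against 7.84 ± 1.54), and miR-142a-3p, found in all blood cells, at 1.03 (0.64 without S22). miR-142a-5p was at 1.59 (0.99 without S22). The call of miR-150-5p, 2.31, was lost without S22 (0.47) and without S26, S28, S29 or S30. In the 3 against 3 comparison miR-142a-3p, miR-142a-5p and miR-150-5p were not called (1.23, 1.83 and 2.93). miR-511-5p had no count in any of the 10 libraries.

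Erythroid miRNAs had too few counts to test, with 0 of 6 rows past the filter, and were mostly seen in S22. miR-451a held 168 counts in S22 and 0 to 3 in the other 9 libraries, and miR-486a-5p 336 and 1 to 9. The sum of the list was 0.00308 to 0.454% of miRNA counts in cKO and 0.00174 to 0.0108% in control libraries. For mesenchyme 1 of 6 tested among 8 rows was higher, miR-10b-5p at 1.63 with overlap, and the sum ran from 0.346 to 3.77% against 1.07 to 1.54%. miR-199a-3p held 313, 2724, 524, 161 and 334 normalised counts in cKO and 888 to 1334 in control libraries, so that S22 was above and the other 4 cKO libraries were below every control (log2 fold change -0.51, edgeR adjusted p = 0.518, and -1.78 with a call without S22). Without S22 the list had 1 higher and 4 lower calls. Of the endothelial pair miR-126a-5p was at 1.59 (edgeR adjusted p = 0.0273), lost without S22, S27, S29 or S30 (1.13 to 1.57) and in the 3 against 3 comparison (1.61). miR-126a-3p was at 0.90 and not called, and was called without S26 (1.23), with a sum of 0.0581 to 0.186% against 0.0192 to 0.0813%. The part of these other cells in the differences above was not tested.

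Both arms of a hairpin were tested in 30 cases. Their log2 fold changes had the same sign in 24, and in the 9 in which both were called the direction was shared in 9. Arms of one hairpin come from one precursor and are not independent.

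Of 181 tRNA fragments tested 19 were called (10.5%), 7 higher (3.87%) and 12 lower (6.63%), while 56 were at an unadjusted p under 0.05. The groups did not overlap in 15 (8.29%), with cKO higher in 4 (2.21%) and lower in 11 (6.08%). At a log2 fold change of 1.5 or more in size 1 was higher and 1 lower (0.552% each), and the lower one, outside the naming rule, was a 3′ fragment of mitochondrial tRNA-Gly-TCC (3.31 against 10.03 normalised counts). The common scaling, which moved the median log2 fold change of all fragments from 0.07 to 0.48, gave 6 higher and 1 lower. Without S29 a single fragment was called higher, without S26 or S30 2, and without S24 or S27 3.

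Fragments of tRNA-Gly-CCC without an end label rose the most. They held 125, 134, 214, 108 and 241 normalised counts in cKO and 39.5, 50.2, 33.3, 48.6 and 29.2 in control libraries. The cKO values were all over 100 and the controls under 51 (log2 fold change 2.04, SE 0.25, edgeR adjusted p = 5.74e-05).

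Fragments with a 5′ end took 26.3, 30.6, 23.2, 21.2 and 24.7% of tRNA counts in cKO and 30.7, 30.2, 27.7, 31.9 and 28.7% in control libraries. The cKO libraries other than S22 were below every control, and the difference of -4.66 percentage points had an exact permutation p of 0.0397, adjusted 0.0728. Among the 45 of them tested 3 were higher and 6 lower (median log2 fold change -0.05 against 0.07 for all). Fragments with a CCA end took 64.6 ± 3.57% against 61.2 ± 1.63% (exact permutation p = 0.0952), with 3 of 69 higher and 2 lower. Of 45 mitochondrial fragments 0 were higher and 5 lower, 1 under the common scaling, with a share of 4.77 ± 1.87% against 4.40 ± 0.529%.

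The 5′ fragments of tRNA-Glu-CTC, among the most abundant, and those of tRNA-Leu-AAG and tRNA-Leu-TAG were lower. Their first 24 bases, as in the RefSeq tRNA genes of GRCm38.p6, are shown because they tell which names can share reads, with no part in capitals.
Glu-CTC 5′ end: tccctggtggtctagtggttagga
Leu-AAG 5′ end: ggtagcgtggccgagcggtctaag
Leu-TAG 5′ end: ggtagcgtggccgagtggtctaag
The Glu-CTC end is found in 11 of 12 genes of that name (chr1:171064164-171064235, minus strand, for one of them) and in 0 of 8 Glu-TTC genes. The Leu-AAG end is also that of 1 of the 3 Leu-TAG genes, so that reads of both names can be shared. The Leu-TAG end shown is in 0 of 5 Leu-AAG genes. In each library the values of Leu-AAG and Leu-TAG 5′ fragments were nearly the same. Most of their reads may thus be shared, and their calls are not independent. Glu-CTC 5′ fragments held 4040, 2304, 2925, 2235 and 2540 normalised counts in cKO and 4537, 5989, 4202, 7119 and 5150 in control libraries. The highest cKO library, S21, was just under the lowest control (log2 fold change -0.94, SE 0.19, edgeR adjusted p = 0.00395, and -0.61 without a call under the common scaling). Leu-AAG 5′ fragments fell from 162 ± 42.8 to 72.8 ± 17.1 (log2 fold change -1.14, edgeR adjusted p = 0.00211) and Leu-TAG 5′ fragments from 165 ± 44.5 to 76.4 ± 17.7 (-1.10), and under the common scaling both lost the call (-0.68 and -0.64).

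The CCA fragments among the 5 most abundant of the table did not pass the test. Ala-TGC and Ala-CGC were both at -0.34 (edgeR adjusted p = 0.201 and 0.192) and Val-CAC and Val-AAC both at 0.25, the latter pair with the same 3′ end in 6 of 11 and 5 of 8 genes. Thr-TGT rose from 111 ± 16.4 to 166 ± 23.4 normalised counts (log2 fold change 0.58, edgeR adjusted p = 0.0279), a call lost without S24, S26, S27 or S29 (0.50 to 0.54), without the filter (0.545), in the 3 against 3 comparison (0.635) and under the common scaling (0.98). Of the other called CCA fragments, which the naming rule did not pick, Gln-CTG was at 1474 ± 326 against 994 ± 200.8 and Gln-TTG at 435 ± 95.1 against 288 ± 59.3 normalised counts (edgeR adjusted p = 0.0407 each, with overlap).

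The piRNA clusters changed widely and by little. Of 214 tested 151 were called (70.6%), 86 higher (40.2%) and 65 lower (30.4%), and 0 of them by a log2 fold change of 1.5 or more in size in edgeR or DESeq2. No tested cluster had so large a fold change in edgeR, whatever its p, while scaling by the table total called 2 and the common scaling 3 higher by that much. The groups did not overlap in 119 (55.6%), with cKO higher in 61 (28.5%) and lower in 58 (27.1%). Scaling by the table total gave 138 higher and 31 lower and the common scaling 141 and 30, with the median log2 fold change moved from 0.11 to 0.39 in both. Clusters named below that change side are pointed out.

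**Figure D3:**
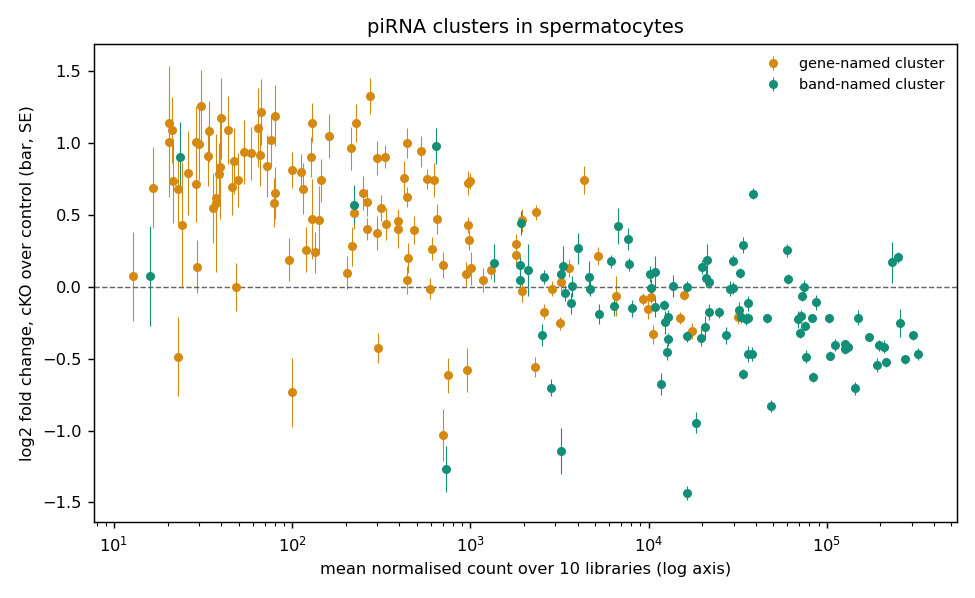
Log2 fold change (cKO over control, bars are the SE of the fit) against mean normalised count over the 10 libraries (log axis) for 214 piRNA clusters, coloured by whether they are named after a gene or a chromosome band. Clusters under 1000 counts lie mostly above 0 and those over 10000 mostly below it, the latter with the scaling used here and not by table total or common scaling.

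Clusters named after a gene give piRNAs from transcripts of that gene, often its 3′ UTR, and are as a rule weak, while clusters named by chromosome band are mostly intergenic and include the strongest. Of 114 gene-named clusters 70 were higher and 12 lower (median log2 fold change 0.53), and of 100 band-named ones 16 were higher and 53 lower (median -0.17). By table total the band-named clusters were 44 higher and 28 lower, while the gene-named ones were 94 higher and 3 lower. Gene-named clusters took 3.59, 3.84, 3.54, 3.44 and 3.43% of cluster counts in cKO and 3.00, 3.07, 3.00, 3.10 and 3.06% in control libraries. The groups did not overlap in this share, which needs no scaling (3.57 ± 0.168% against 3.05 ± 0.0462%, n = 5 each, exact permutation p = 0.00794, adjusted 0.0175).

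Level and name went together. The 77 clusters with a mean of at least 10000 normalised counts held 96.7% of cluster counts, and 7 were higher and 51 lower (median log2 fold change -0.22). The 94 clusters under 1000 held 0.413%, and 67 were higher and 6 lower (median 0.69). At the higher level, 0 of 6 gene-named clusters were higher and 4 lower, against 7 and 47 of 71 band-named ones. Among weak clusters 64 of 89 gene-named and 3 of 5 band-named ones were higher. The side of the abundant clusters depended on the scaling. By table total 27 of the 77 were higher and 25 lower (median 0.06), and under the common scaling 29 and 24 (median 0.06), while the weak clusters were 81 and 82 higher and 3 lower in each. Between these levels both kinds of name were common, with 6 of 19 gene-named clusters higher and 3 lower (median 0.05) and 6 of 24 band-named ones higher and 5 lower (median 0.07).

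The lowest cluster was 10-qC1-875 (chr10:86617012-86670850, plus strand, 15.9% of it exons of the non-coding Gm48485). It held 9131, 8419, 9452, 9351 and 8296 normalised counts in cKO and 25635, 24116, 24923, 23090 and 23049 in control libraries. The libraries of each group differed by little beside that gap (log2 fold change -1.44, SE 0.05, edgeR adjusted p = 1.56e-10). The long RNA of the same span, read in 3 libraries per group, held 4426, 5641 and 3759 normalised counts in cKO and 8529, 6393 and 6428 in control (log2 fold change -0.63, edgeR adjusted p = 0.0284). In long RNA 44 of 214 precursors were higher (20.6%) and 30 lower (14%). Long and small RNA may come from the same mice, and their values are set side by side only.

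10-qC1-117 (chr10:84488294-84504837) was at -1.27 in small RNA (427 ± 114 against 1027 ± 128) and at -0.81 in long RNA. pi-Zmat3 (chr3:32334794-32365665, minus strand, 23.3% of it UTR of Zmat3) was at -1.03 and -0.73. Zmat3 encodes a zinc finger RNA-binding protein that p53 induces. 10-qB5-5404 (chr10:66679900-66698136) was at -0.83 and -0.48, with 34900 ± 1377 against 62100 ± 3140 normalised counts of small RNA. In these 3 clusters both values passed their test in the same direction. Over all clusters called lower in small RNA, 8 had a lower and 20 a higher call in long RNA, and over those called higher 13 had a higher and 15 a lower one. By table total these counts were 5 and 11, and 23 and 19. Of the 77 clusters with a mean of at least 10000 in small RNA, 24 were higher and 9 lower in long RNA, whatever their small RNA did.

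The low clusters named next had no lower call in long RNA. 14-qA3-2286 (chr14:24337663-24369814, minus strand, in no annotated gene of that strand) held 12018, 14728, 13241, 12493 and 10443 normalised counts in cKO and 23563, 23633, 24276, 25533 and 24225 in control libraries. That is a clear gap (log2 fold change -0.95, SE 0.07, edgeR adjusted p = 2.01e-07), and its long RNA was at -0.06 (edgeR adjusted p = 0.778). 3-qA2-617 was at -1.14 and its long RNA at -0.11, and the neighbour 14-qA3-284 (chr14:24412817-24429825) at -0.70 with its long RNA at -0.19 (edgeR adjusted p = 0.317). 4-qC5-17839 (chr4:94280152-94331623) fell from 179640 ± 4626 to 110040 ± 8102 (log2 fold change -0.71, SE 0.05, edgeR adjusted p = 4.2e-08), while its long RNA rose from 8627 ± 408 to 12103 ± 1304 (log2 fold change 0.49, edgeR adjusted p = 0.0095).

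The clusters with the most counts did not all move one way. Of the 5 most abundant 4 were lower and 1 higher, and one of the 4 is not described here. 9-qC-31469 (chr9:67691252-67733786) fell from 339060 ± 5669 to 268240 ± 10644 normalised counts (log2 fold change -0.34, SE 0.03, edgeR adjusted p = 7.82e-07, and -0.06 with a call by table total and common scaling), with long RNA at 0.79 (edgeR adjusted p = 0.00557). 2-qE1-35981 (chr2:92541142-92609144) was at -0.50 (-0.23 and -0.22), with long RNA at 0.07. 5-qG3-23659 (chr5:149790072-149831589) held 285830, 246610, 268730, 265700 and 271370 normalised counts in cKO and 242720, 234690, 235090, 221740 and 226640 in control libraries. Each cKO library was above each control, S22 by the least (log2 fold change 0.21, SE 0.04, edgeR adjusted p = 0.000475). Its long RNA rose far more, from 3776, 4279 and 3278 to 10604, 12340 and 8552 (log2 fold change 1.47, edgeR adjusted p = 0.000933).

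**Figure D4:**
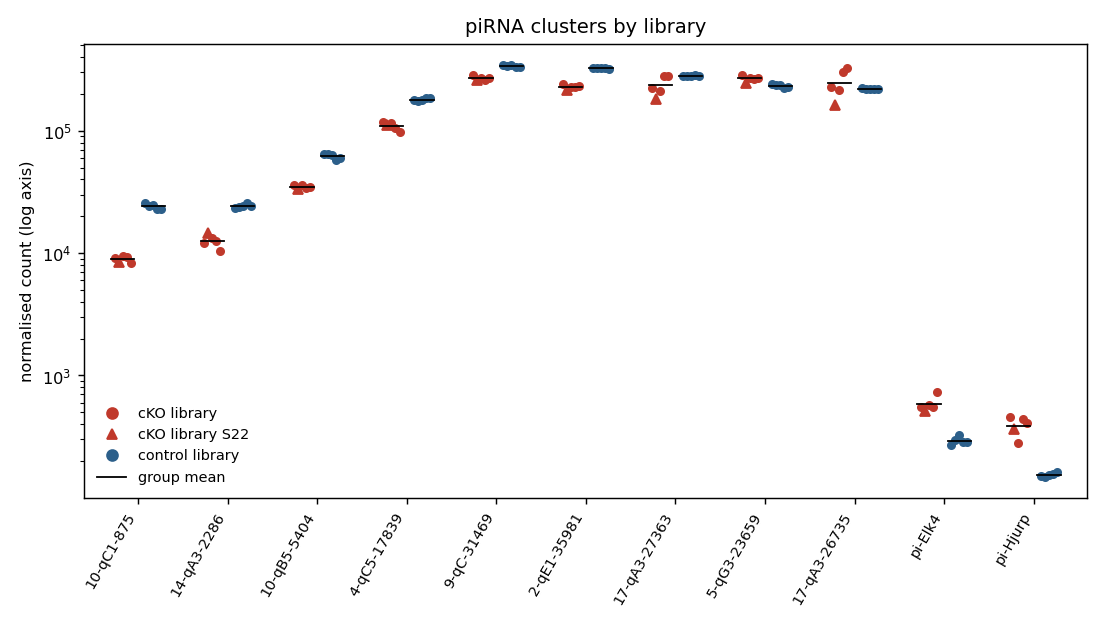
Normalised counts (log axis) of 11 piRNA clusters in each of the 5 cKO (red) and 5 control (blue) libraries, with a line at each group mean and library S22 as a triangle. The control libraries of each cluster are close together, the cKO libraries of 17-qA3-27363 lie below or at their level, and those of 17-qA3-26735 on both sides of it.

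17-qA3-27363 and 17-qA3-26735 are transcribed away from each other with 169 bases between them (chr17:27288276-27325028, minus strand, and chr17:27325197-27367483, plus strand). The plus cluster held 229210, 162160, 216150, 303090 and 324280 normalised counts in cKO and 217350 to 223910 in control libraries. The cKO libraries thus spread over a range that the control libraries did not, with S22 lowest and S24 and S25 highest (log2 fold change 0.17, edgeR adjusted p = 0.3, and 0.29 with a call without S22). The minus cluster held 222950, 181160, 212870, 279370 and 281870 in cKO and 279170 to 283350 in control libraries. S24 and S25 were at the control level and the other 3 below it (log2 fold change -0.25, edgeR adjusted p = 0.0347). The call of the minus cluster was lost without S21 or S23 (-0.23 and -0.22) and in the 3 against 3 comparison (-0.29), and its log2 fold change was 0.02 by table total or common scaling. The plus cluster was called under both of those scalings (0.44 and 0.45). The long RNA of both rose, from 6345 ± 1418 to 11467 ± 2960 for the minus and 12977 ± 3143 to 23405 ± 6317 for the plus cluster (log2 fold change 0.85 each, edgeR adjusted p = 0.022 and 0.0288).

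Pairs of clusters on opposite strands at most 1000 bases apart numbered 15, an arrangement known for shared promoters of pachytene clusters. Of their 30 clusters 26 had a mean of at least 10000 normalised counts, and 23 were lower and 1 higher on their own. Both log2 fold changes had the same sign in 11 pairs, and of 10 pairs with both clusters called 9 had both lower. By table total the sign was shared in 9 pairs, and of 9 with both called 5 had both lower, 1 both higher and 3 opposite signs. The exception was 7-qD1-654 at 0.16 with 7-qD1-19431 at -0.42. 7-qD2-24830 and 7-qD2-11976 were at -0.54 and -0.63.

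The highest clusters with at least 100 normalised counts were gene-named apart from one. pi-Hjurp (chr1:88258856-88277518, minus strand, 10.8% of it coding and 22.9% UTR of the centromere histone chaperone Hjurp) held 455, 366, 283, 439 and 406 normalised counts in cKO. In control libraries it held 152, 148.04, 154, 157 and 164. Every cKO library was over every control (log2 fold change 1.33, SE 0.12, edgeR adjusted p = 9.45e-07), while long RNA of the span was at 0.08 (edgeR adjusted p = 0.759). pi-Hif1an, of the oxygen sensor FIH, and pi-Smcr8, of an autophagy regulator, were both at 1.14, pi-Fam168b at 1.05 and pi-D730040F13Rik at 0.96. pi-Elk4 (chr1:132007618-132031584), of an ETS transcription factor, rose from 293 ± 21.4 to 587 ± 88.3 (log2 fold change 1.00), with long RNA at -0.06, and pi-Abl2, of a tyrosine kinase, was at 0.94. The band-named 17-qC-59 (chr17:50237659-50247541, 59.5% exons of AY702103) rose from 431 ± 41.2 to 852 ± 163 (log2 fold change 0.98, edgeR adjusted p = 1.69e-05). The gene-named cluster with the most counts, pi-Gm5878, was at -0.21 (29358 ± 1797 against 33969 ± 1384) and at 0.07 without a call by table total or common scaling.

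Small RNA over repeats was counted by repeat name, and a read of a cluster that also lies in a repeat may be in both tables. Of 810 names tested 375 were called (46.3%), 183 higher (22.6%) and 192 lower (23.7%). A log2 fold change of 1.5 or more was reached by 4 (0.494%) and one of -1.5 or less by 14 (1.73%). The groups did not overlap in 258 (31.9%), with cKO higher in 103 (12.7%) and lower in 155 (19.1%). Scaling by table total gave 307 higher and 116 lower and the common scaling 378 and 86, with the median log2 fold change at 0.27 and 0.34 in place of 0.08. The 3 against 3 comparison called 111 higher. Without S28 the names at 1.5 or more numbered 8. The 4 names, outside the naming rule for their low counts, were LTR85a, LTRIS4A, L1ME3F and LTR33A_. Lists were set by the names, and 351 of the names tested are in none.

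**Figure D5:**
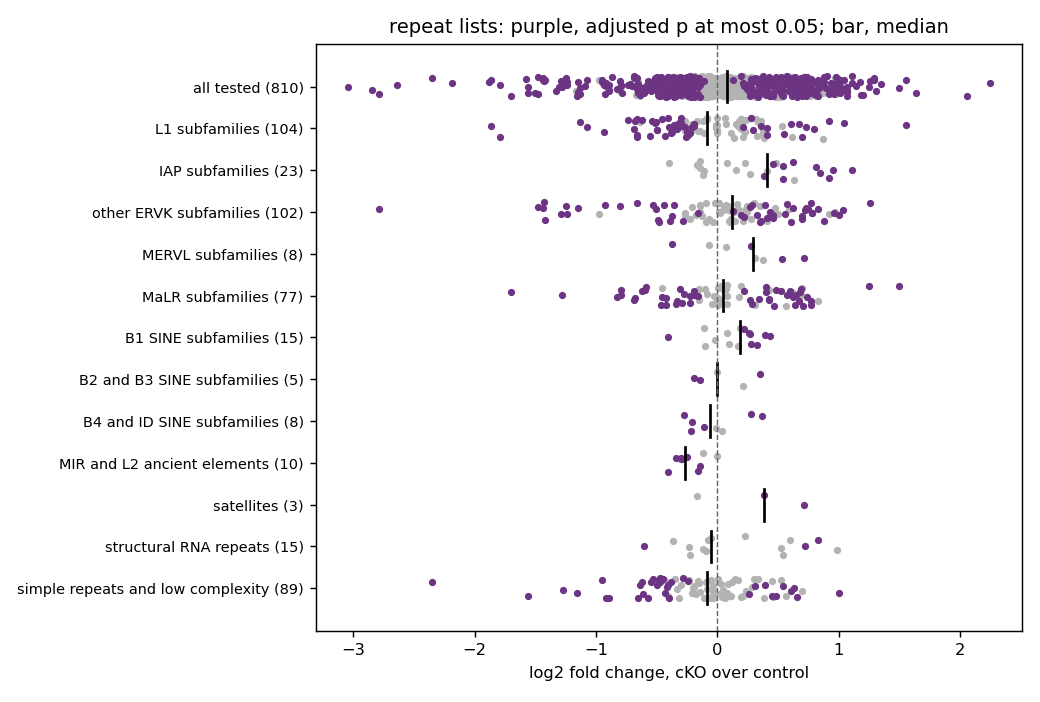
Log2 fold changes (cKO over control) of the repeat names tested in each list, with the number tested in brackets, called names in purple, others in grey and a bar at the median. IAP subfamilies have their median at 0.41, ancient MIR and L2 elements at -0.27 and all 810 names at 0.08.

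IAP elements are young LTR retrotransposons of the mouse that DNA methylation and piRNAs keep silent. Of 23 subfamilies 10 were higher and 0 lower (median log2 fold change 0.41), and none was lower in any alternative. Their share of repeat counts was 1.48, 1.05, 1.42, 1.64 and 1.79% in cKO and 0.957, 0.989, 0.957, 0.908 and 0.953% in control libraries. All cKO libraries were above all controls, S22 by the least (exact permutation p = 0.00794, adjusted 0.0175). IAPLTR3-int rose from 4831 ± 208 to 7035 ± 765 normalised counts (log2 fold change 0.54, edgeR adjusted p = 2.62e-05), with long RNA at -0.14 (edgeR adjusted p = 0.834), in a test of long RNA that called 30 of 1079 elements higher (2.78%) and 17 lower (1.58%). IAPEz-int held 2755, 1764, 2661, 4007 and 4158 in cKO and 2034 to 2229 in control libraries, with S22 below them (log2 fold change 0.54, edgeR adjusted p = 0.0217). Its call was lost without S24 or S25 (0.42 and 0.41) and in the 3 against 3 comparison (0.40). In that comparison 4 IAP subfamilies were higher.

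L1 elements are the autonomous LINE retrotransposons of the mouse. Of 104 subfamilies 15 were higher and 40 lower (median log2 fold change -0.09), a balance that table total turned to 33 higher and 26 lower and the common scaling to 40 and 18. As a share of repeat counts, L1 made 16.7 ± 0.646% in cKO and 18.8 ± 0.127% in control libraries, without overlap (exact permutation p = 0.00794, adjusted 0.0175). L1Md_F held 738, 987, 852, 778 and 632 normalised counts in cKO and 2610, 2647, 2777, 2974 and 2770 in control libraries. The gap was far over the spread (log2 fold change -1.79, SE 0.10, edgeR adjusted p = 7.95e-09), and its long RNA was at 0.16 (edgeR adjusted p = 0.654). The older L1ME4c fell from 607 ± 39.5 to 166 ± 28 (log2 fold change -1.87), and L1M2, the L1 name with the most counts, was at -0.62 (27196 ± 3180 against 41787 ± 1115).

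Among names with a mean of at least 100, the lowest was the hAT DNA transposon Charlie19a. It held 177, 144, 165, 160 and 126 normalised counts in cKO and 1081, 978, 982, 863 and 895 in control libraries. The highest cKO library was far below the lowest control (log2 fold change -2.64, SE 0.10, edgeR adjusted p = 3.05e-10), and its long RNA fell as well, from 404 ± 35.4 to 136 ± 34.7 (log2 fold change -1.58, edgeR adjusted p = 0.0049). RLTR20B2 was at -2.18 (66.6 ± 9.16 against 303 ± 41.3), LTRIS_Mm at -1.58 and MER52-int at -1.48 (2877 ± 316 against 8025 ± 230), all LTR elements. The long RNA of MER52-int was at 0.40, opposite in direction (edgeR adjusted p = 0.0326). MamTip2, another hAT element, was at -1.31 and RMER10B at -1.28.

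Among higher names, the LTR elements RLTR1B-int, RMER5 and RLTR10B2 were at 1.20, 1.03 and 1.00. RMER5 rose from 1267 ± 57.9 to 2595 ± 225 normalised counts (edgeR adjusted p = 2.37e-08), with long RNA at -0.10. RLTR10B2 held 556, 380, 602, 362 and 560 in cKO and 271, 265, 236, 240 and 222 in control libraries. It did not overlap between groups (edgeR adjusted p = 5.77e-05), and its long RNA was higher too (1376 ± 397 against 573 ± 56.7, log2 fold change 1.26, edgeR adjusted p = 0.00852). ORR1A4-int, ORR1B2, RLTR17 and RLTR6-int were at 0.76 to 0.77, each without overlap.

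Of the other lists, ERVK names outside IAP (102, of which 90 carry the family label ERVK) were 31 higher and 22 lower, and 56 and 13 under the common scaling. MaLR subfamilies, old non-autonomous LTR elements, were 25 higher and 25 lower of 77, and 41 and 13 under the common scaling, with ORR1F at -0.23 and at 0.04 under that scaling. Their shares of repeat counts were 9.08 ± 0.122% against 8.41 ± 0.0783% for ERVK names and 16.1 ± 0.173% against 16.7 ± 0.0731% for MaLR, without overlap (exact permutation p = 0.00794 each, adjusted 0.0175). MERVL, active in early embryos, had 3 of 8 names higher and 1 lower, beside 22.6% higher and 23.7% lower over all 810 names. Counts of lists this short, here and below, cannot be set apart from those shares. MERVL-int was at 0.54 with overlap (0.44 without a call in the 3 against 3 comparison), and MT2B, its LTR relative, at -0.37 (-0.18 and -0.10 without a call under the other scalings).

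B1 elements, SINEs derived from 7SL RNA, were 7 higher and 1 lower of 15, with a share of 3.95 ± 0.221% in cKO and 3.25 ± 0.129% in control libraries without overlap (exact permutation p = 0.00794, adjusted 0.0175). The tRNA-derived B2 and B3 names were 1 higher and 2 lower of 5, and B4 and ID names 2 higher and 4 lower of 8, turning to 4 and 0 and 5 and 0 under the common scaling. As a share of repeat counts, B4 and ID names were higher in cKO, at 4.45 ± 0.0521% against 4.13 ± 0.0726% without overlap (exact permutation p = 0.00794, adjusted 0.0175), opposite to the balance of their calls. Of 10 ancient MIR and L2 names 0 were higher and 8 lower (3 and 1 under the common scaling), and their share was 13.7 ± 0.248% against 14.4 ± 0.18% without overlap (exact permutation p = 0.00794, adjusted 0.0175). L2c, the repeat name with the most counts, fell from 48971 ± 586 to 39724 ± 2552 (log2 fold change -0.30, and -0.03 without a call under the common scaling). MIRc was at -0.34 and MIRb at -0.25, at -0.07 and 0.02 under the common scaling. MurERV4_19-int, an ERVK name, was at -0.38 and RMER10A at -0.49.

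Satellites and structural RNA closed the table. Of 3 satellite names 2 were higher, MMSAT4 at 0.38 (796 ± 43.4 against 611 ± 36.2) and MurSatRep1 at 0.71 (181 ± 9.39 against 110 ± 7.64, edgeR adjusted p = 1.73e-05). The satellite share was 0.0890 to 0.0932% in cKO and 0.0581 to 0.0655% in control libraries (exact permutation p = 0.00794, adjusted 0.0175). Structural RNA names were 2 higher and 1 lower of 15, 6 and 0 by table total, and simple repeats 10 higher and 27 lower of 89, 30 and 10 under the common scaling.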

How the data were processed

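Small RNA was sequenced by the authors from QIAseq miRNA libraries (single reads), and the deposited tables were used. Per the labels and methods, miRNAs and tRNA fragments were assigned with SPORTS (mm10), and clusters and repeats with HISAT2 2.1.0 and featureCounts 2.0.1 as the submitters' processing notes give them. Deposited miRNA and tRNA values are raw counts, as are those of elements in long RNA (TEtranscripts), and an empty entry was set to 0. Deposited cluster, repeat and precursor values are expected counts, fractions of reads that match more than one place, and were rounded here. Whether reads of one molecule were merged is not stated.

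Tests used edgeR 4.0.16 in R 4.3.3 (TMM within a table, quasi-likelihood, Benjamini-Hochberg), on miRNAs and tRNA fragments with 10 counts in at least 3 libraries and on clusters and repeats with 1 in every library. Long RNA of precursors and elements needed 10 counts in total. Normalised counts are scaled to the mean effective library size, and errors of folds are standard errors. Shares used exact two-sided permutation. Alternatives were DESeq2 1.42.0, other scalings, no filter, unrounded counts, repeats without simple, satellite and structural rows, each library left out and, chosen after seeing the data, alike libraries summed, also for shares, counts of clusters by level, pair and precursor under each scaling, and miR-34a added to its family. Named features were list members and the 5 most abundant of each table. The others were the 8 highest and 8 lowest called with a mean of at least 100 and no overlap. Some list members are given by counts only, and the cluster 17-qA3-26735 was added after its values were seen. Genes over clusters are those of GENCODE vM21. Members and lists were chosen with earlier results of these data known. On simulated data a log2 fold change of 2 was recovered for 90% of miRNAs, 95% of tRNA fragments, 100% of clusters and 96.5% of repeats, one of 1 for 50, 50, 85 and 83.5%, and one of 0.5 for 0, 0, 75 and 50.5%. Of the miRNAs called there 23.1% were false at 1 and 5.26% at 2, and in the other tables at most 4.76%. The simulation changed 20 features per table, or 200 repeats, in equal numbers up and down. It drew 5 independent libraries per group with the fitted dispersions. More miRNAs, clusters and repeats were called in the data than it changed, and the libraries need not be independent, so that its rates may not hold for the data. Figures were drawn with matplotlib 3.10.9. One cluster that the naming rule picks is not reported here.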

Additional observations from a re-analysis of the deposited data

Results flagged for a closer look

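Of 113 named features, in 226 groups of 5 libraries, and 15 shares, 21 values stood apart from the other 4 of their group by Dixon's criterion, by which chance alone marks about 1 group in 20. S22 gave 16 of them, other cKO libraries 2 and control libraries 3.

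In S22 miRNAs of the leukocyte, smooth muscle, mesenchyme and endothelium lists were high, with 1400 normalised counts of miR-146a-5p (68.1 to 253 in the other cKO libraries), 372 of miR-223-3p (19.9 to 114), 545 of miR-142a-5p (104 to 196), 153 of miR-150-5p (7.11 to 17.2), 80.6 of miR-145a-5p (17.2 to 32.7), 2720 of miR-199a-3p (161 to 524), 83.9 of miR-126a-5p (22.7 to 33.9) and 262 of miR-126a-3p (86.7 to 124). miR-1981-5p was at 108 (21.8 to 44.2). Its miRNA share was 4.03% (2.41 to 2.69%), its cluster share 94.5% (96.1 to 96.8%) and its MaLR share of repeats 15.8% (16.1 to 16.2%). Among repeats S22 held 33500 of MIRb (30500 to 31300), 16500 of RMER10A (13300 to 14100), 870 of MMSAT4 (763 to 791) and 5710 of IAPLTR3-int (7020 to 7520).

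The other values were 53.2 of miR-141-3p in S24 (21.8 to 30.7), 109 of LTRIS_Mm in S23 (86.3 to 92.4), 245 of miR-200a-3p in S26 (313 to 325) and, in S29, 2860 each of Val-CAC and Val-AAC CCA fragments (3380 to 3560 and 3380 to 3550), which share reads.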

How the results depend on the processing

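No paired analysis was possible because the small RNA columns carry no replicate number. The causes of the following changes were not tested, beside what fewer libraries or other scalings change by construction. DESeq2 size factors gave 4 tRNA fragments higher and no filter 3, and libraries left out one at a time gave 1 to 10. The 3 against 3 comparison, with fewer libraries, called 34 and 33 miRNAs and 1 and 6 tRNA fragments higher and lower, and 111 repeats higher. Its shares could not pass (smallest p 0.1), with repeats 1.03 per 100 higher, and 3′ tRNA fragments turned to 0.00412. The common scaling gave 44 miRNAs higher, 1 tRNA fragment lower, 141 clusters higher and 30 lower, and 378 repeats higher and 86 lower. The table total gave 138 and 31 clusters and 307 and 116 repeats. With repeats in the sum the cluster share differed by -0.454 percentage points. With libraries left out one at a time, differences ran from -0.887 (without S22) to -0.481 for the miRNA share and 0.209 to 0.776 (without S22) for the cluster share. They ran from -0.0099 to 0.00921 for 3′ and -0.0826 to 0.913 for mitochondrial tRNA fragments and -0.0277 to 0.0279 for simple repeats. Signs turned for miR-471-5p without filter (-0.00545), miR-199a-3p in the 3 against 3 comparison (0.0839), 17-qA3-27363 (0.0182 by table total and 0.0247 by common scaling), pi-Gm5878 (0.0666 and 0.0715), MIRb (0.0201) and ORR1F (0.0439) by common scaling.
Of the other values of named features under an alternative, 1781 kept direction and side of the threshold, 88 lost the call and 7 gained one. The miRNA and tRNA tables had fewer counts and a wider spread between libraries (common coefficient of variation 33.8% and 23.1%) than clusters (9.59%) and repeats (11%), and the parts of depth and spread in their limits cannot be told apart.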
